A study of Mus musculus with 21 samples.

Results

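The narrow Ash1L peaks are the stretches of fewer than 1000 bp that the deposited replicate lists hold on chromosomes 1 to 19 and X of the mouse. Their members were chosen by a measured value, the width from the start to the end of each peak, and rows with the same start and end were read as 1 peak. By this rule 300 of the 503 peaks of the 3 lists were narrow. The width is therefore a description of the choice and not a result. Ash1L was precipitated from C2C12 cells, a line of mouse C3H myoblasts that fuse into myotubes once serum is withdrawn. The cells were taken on day 1, after 24 hours in DMEM with 2% donor horse serum, and a Bethyl laboratories rabbit antibody against Ash1L was used in all 3 replicates. Each replicate was compared with input chromatin by the peak caller, and no other treatment or genotype enters the values given here.

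Ash1L is a Trithorax-group protein that methylates lysine 36 of histone H3 and opposes Polycomb repression of developmental genes, among them the Hox clusters. A ChIP-seq peak marks a stretch where DNA from the precipitate is more frequent than in the input. A broad domain can break into several short peaks at its edges, and a short peak can also stand by itself.

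Replicate 1 held 163 narrow peaks among its 240, and replicate 3 held 137 among its 228. Replicate 2 held 0 among its 35, as its narrowest peak on these chromosomes was 1035 bp wide. Every narrow peak described here thus comes from replicate 1 or replicate 3. The lists carry no read counts, so the sequencing depth of each replicate is unknown, and whether depth sets these numbers was not tested. On the same chromosomes, 65, 34 and 76 peaks of 1000 bp or more stood in replicates 1, 2 and 3, and these serve as the comparison below. Chromosome 15 carried most narrow peaks, 24 in replicate 1 and 18 in replicate 3. Chromosome 19 carried 1 in each.

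The widths ran from 236 to 991 bp in replicate 1, with a median of 388 bp, and from 277 to 968 bp in replicate 3, with a median of 436 bp. The narrow peaks covered 73549 bp and 65905 bp in replicates 1 and 3. The peaks of 1000 bp or more covered 179205 bp and 224367 bp, so the narrow peaks were the larger number and the smaller length. Of the 300, 239 had 1 summit and none had more than 4. Just inside the limit were peaks of 991 bp at Zic1 and Zic4 (chr9:91361841-91362831, replicate 1), 970 bp at Tnrc18 (chr5:142813949-142814918, replicate 1) and 968 bp at Hoxa7 (chr6:52215875-52216842, replicate 3). Just outside it were a peak of 1001 bp in replicate 3 and one of 1002 bp in replicate 1, both at Mir99ahg on chromosome 16, and one of 1026 bp on chromosome 15 in replicate 3. The limit divides a continuous range of widths.

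The fifth column of the lists has no name and was read as the −log10 q value of the peak. In the narrow peaks of replicate 1 it ran from 2.98 to 280.4 with a median of 7.04. In replicate 3 it ran from 2.38 to 38.4 with a median of 6.05. Peaks of 1000 bp or more had medians of 19.3 and 21.8 in the same replicates. Many narrow peaks shared a value, since the 163 peaks of replicate 1 took 81 distinct values and 20 of them stood at 6.83. Among the narrow peaks the value rose with width, with a Spearman rho of 0.30 in replicate 1 (n = 163) and 0.29 in replicate 3 (n = 137). The width limit cuts the range of these values, and over chromosomal peaks of every width rho was 0.63 (n = 228) and 0.69 (n = 213). These are descriptions across peaks of 1 library, which share its depth and input. Between the replicates, 57 pairs of overlapping peaks were narrow in both, and their values had a rho of 0.39. The replicates were called against the same input sample, and how much agreement this alone would bring was not tested. The value was higher in replicate 1 for 30 pairs and higher in replicate 3 for 27, so the pairs were split nearly evenly. The paired peaks had their middles a median of 79.5 bp apart and shared a median of 62.0% of their joint length.

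Of the narrow peaks, 174 (58.0%) shared 1 bp or more with a peak from one of the other lists. When the shared stretch had to be 50% or more of both peaks, 29.3% did. With 1 bp and replicate 2 as the only other list, the share was 12.3% in replicate 1 and 8.03% in replicate 3. With 1 bp, in replicate 1 the share was 66.9% (95% exact binomial interval 59.1–74.0%), against 100% of its 65 wider peaks. In replicate 3 it was 47.4% (38.9–56.1%), against 98.7% of its 76 wider peaks. Narrow peaks were thus found again less often in both replicates that had them. The difference of −33.1 and −51.2 percentage points had the same sign in each, and an exact two-sided sign-flip test over these 2 replicates gave p = 0.5, the smallest it can give. The intervals cover counting error only, peaks are not replicates, and neighbouring peaks are not independent. A wide peak also has more bases with which to meet another peak.

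The kind of peak found in the other list differed with the direction. A peak that overlapped both a narrow and a wider one was counted as meeting the wider. Of the 163 narrow peaks of replicate 1, 53 met only narrow peaks in replicate 3, 55 met a wider one and 55 met none. Of the 137 narrow peaks of replicate 3, 53 met only narrow peaks in replicate 1, 12 met a wider one and 72 met none. A wider peak of replicate 3 thus overlapped a narrow one of replicate 1 more often than the reverse, 55 times against 12. The 55 narrow peaks of replicate 1 overlapped 37 wider peaks of replicate 3, of 1026 to 12977 bp. In replicate 2, 20 narrow peaks of replicate 1 and 11 of replicate 3 met a wider peak, and the others met none.

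The narrow peaks were next placed against the merged list, the union of the 3 lists, in which 44 regions of 2000 bp or more lie on these chromosomes. Of the 300, 57 (19.0%) lay inside such a wide region and 97 (32.3%) flanked one within 10 kb. Another 79 (26.3%) had merged regions within 10 kb but no wide one, and 67 (22.3%) stood alone. Most narrow peaks, 233 of 300, thus had other Ash1L regions beside them or around them. Alone meant no other merged region within 10 kb, so a lone peak could share its own region with other peaks. At Baz2b and Gm13620, 4 narrow peaks classed as alone lay in 1 merged region of 1943 bp. At 1810026B05Rik, 1 lay in a region of 1232 bp with a wider peak of replicate 3. The shares inside, flanking, clustered and alone were 26.4%, 28.2%, 20.2% and 25.2% in replicate 1. They were 10.2%, 37.2%, 33.6% and 19.0% in replicate 3. The share inside wide regions was the one that differed most between the 2 replicates as a ratio.

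A flanking peak lay a median of 1343 bp from the wide region, with gaps from 38 to 9275 bp, and 45 of the 97 lay within 1 kb. Of the 44 wide regions, 35 had a narrow peak within 10 kb. Those with most narrow peaks around them lay on chromosome 15. The region chr15:85671722-85674466 had 18 narrow peaks around it and chr15:85663296-85668938 had 14, some of them counted for both regions, and no gene is assigned to either. The third, chr15:102953424-102966400 at Hoxc10 and Hoxc11, had 13, of which 8 came from replicate 1 and 5 from replicate 3. Around it the −log10 q of the narrow peaks ran from 2.38 to 9.59. At the Hoxa10 and Hoxa9 region chr6:52222802-52235406 there were 12, with values from 4.09 to 20.2. Hox genes give body segments their identity and are classical Trithorax targets.

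Peaks inside wide regions were all met by a peak of another list. Of the flanking peaks 58.8% were, of the clustered ones 44.3%, and of those that stood alone 37.3%. In replicate 1 these shares were 69.6%, 63.6% and 31.7%. In replicate 3 they were 49.0%, 30.4% and 46.2%, so lone peaks were met more often than clustered ones there. The full share inside is set by construction. A peak of fewer than 1000 bp can lie in a region of 2000 bp or more only by meeting a peak of another list. The median −log10 q was 7.53 inside, 6.60 for flanking, 6.05 for clustered and 7.76 for lone peaks. In the same order it was 7.24, 6.83, 6.83 and 9.70 in replicate 1, and 7.78, 6.05, 5.67 and 5.72 in replicate 3. Lone peaks thus ranked highest in replicate 1 only. Over both replicates together the lone peaks were the narrowest, with a median of 366 bp against 575 bp inside. In replicate 3 their median was 381 bp, above the 376.5 bp of the clustered peaks.

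In replicate 1, the highest values of the lone peaks went with 1 simple sequence. A tandem run of at least 5 copies of CCATT, read in any frame and on both strands, lay in 16 narrow peaks. All 16 stood alone, and 14 of them were in replicate 1. Their median −log10 q was 22.8, against 6.64 in the 284 narrow peaks without a run. Of the 175 peaks of 1000 bp or more, 0 held such a run. Of windows of 403 bp placed every 100 kb on the same chromosomes, 2 of 25594 (0.00781%) held one. The run and its minimum length were chosen after the sequences of the strongest peaks were seen, so these counts are a description. The 16 peaks lay in 14 merged regions, of which 12 were in replicate 1 alone, and 11 of the 14 have no assigned gene. Of the 20 narrow peaks of highest value in each replicate, 10 carried the run in replicate 1 and 2 in replicate 3.

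The 2 narrow peaks of highest value in replicate 1 both carried the run and lay between genes, and both were in 2 lists. The first had 280.4 in replicate 1 and 35.8 in replicate 3, and the other had 94.8 and 21.02. Peaks at chr11:25099968-25100367 (72.8), chr6:125876862-125877321 in an intron of Ano2 (51.3) and chr17:56199864-56200253 in an intron of Dpp9 (33.9) were in replicate 1 alone. In these 5 peaks the longest run had 8, 12, 9, 12 and 15 copies. Uniquely mapped reads were kept by the authors, yet 28.1% and 29.4% of the 50-base words of the 2 strongest peaks in replicate 1 occur more than once in the reference. Over all 16 the median share was 25.0%, and over all 300 narrow peaks it was 0%. The part of repeated sequence in these values was not tested.

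The 51 lone peaks without the run had a median −log10 q of 6.83, a median GC content of 47.4%, and 30 of them (58.8%) lay within 1 kb of a TSS. With the run, the median GC content was 39.5% and 2 of 16 lay that near. For lone peaks without it, the share within 1 kb of a TSS was 70.4% in replicate 1 and 45.8% in replicate 3.

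Among lone peaks without the run, the highest value found in 2 lists was at the divergent promoter of the histone genes Hist1h4a and Hist1h3a, which encode core histones H4 and H3. The region chr13:23761191-23761766 had 45.8 in replicate 1 and 26.3 in replicate 3. The peak of replicate 3 covers the start of Hist1h4a, and that of replicate 1 lies 31 bp from it. Its GC content was 57.6%, and 0% of its bases are soft-masked as repeats. The middle of the region, which holds no exon, is printed because of this rank. It is from the plus strand of GRCm38, 5′ to 3′, and has no E-box, so no base is in capitals.
chr13:23761313-23761612: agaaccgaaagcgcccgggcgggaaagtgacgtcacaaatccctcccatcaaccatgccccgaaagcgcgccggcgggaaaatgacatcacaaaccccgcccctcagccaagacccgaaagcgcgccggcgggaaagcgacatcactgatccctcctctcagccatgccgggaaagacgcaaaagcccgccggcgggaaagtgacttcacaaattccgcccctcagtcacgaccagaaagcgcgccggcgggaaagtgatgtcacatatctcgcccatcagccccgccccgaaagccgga
A lone peak in an intron of Jarid2 had 20.7 and 26.4 at chr13:44869570-44869895. In replicate 3, 30.7% of its 50-base words were repeated, with up to 12 copies. The lone peak at Zfp36l2 (chr17:84185090-84185809) had 10.7 and 5.40. A lone peak in the list of replicate 3 by itself, in an intron of Cmss1 and Filip1l (chr16:57391280-57391615), had 31.7, with 61.7% of its words repeated. The Jarid2 and Cmss1 peaks of replicate 3 shared 43 of their 31-base words, 296 and 306 in number. The sequence taken as ribosomal RNA was a partial 28S gene of 420 bp and a chromosome 17 locus with the gene Gm26917, labelled lincRNA. With it, the Jarid2 and Cmss1 peaks shared 0%. Both the Jarid2 and the Cmss1 peak may hold sequence derived from 28S ribosomal RNA, but no complete 28S sequence was compared. Whether their values belong to these introns was not tested.

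Of the narrow peaks that flanked a wide region, the strongest lay on chromosome X. The region chrX:126773110-126773935 had 33.2 and 38.4 in replicates 1 and 3, and chrX:126771312-126772081 had 34.3 and 26.3. Their sequence was poor in G and C, with 28.8% and 24.4%, they lay 41933 and 43787 bp from the nearest TSS, and 70.5% and 68.5% of their 50-base words were repeated in replicate 1. Next came Foxc2, a forkhead factor of mesoderm, with 20.5 and 18.5 at chr8:121116713-121117342, and the antisense gene 2700069I18Rik, with 16.0 and 16.8 at chr3:5216532-5217212. Hoxa11 had 11.7 and 18.0 at chr6:52243934-52244738. Zeb2, a zinc finger homeobox repressor, had 12.7 and 9.96 at chr2:45110498-45111411. These regions were in replicates 1 and 3 and absent from the list of replicate 2. At Purb, whose product binds single-stranded purine-rich DNA, chr11:6474150-6475108 had 12.7 and 9.59 with no wide region near. Bases of the 2700069I18Rik region are printed as an example of a flanking peak without repeated words, from the same strand and build, with its 2 E-boxes (CANNTG) in capitals.
chr3:5216747-5217046: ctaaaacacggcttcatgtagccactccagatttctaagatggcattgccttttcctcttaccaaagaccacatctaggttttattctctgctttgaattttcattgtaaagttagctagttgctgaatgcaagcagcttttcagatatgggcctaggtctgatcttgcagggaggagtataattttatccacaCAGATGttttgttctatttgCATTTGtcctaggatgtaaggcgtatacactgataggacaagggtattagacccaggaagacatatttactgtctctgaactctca

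At the lower end, replicate 1 had its lowest value, 2.98, in an intron of Eya4 (chr10:23347460-23347950), and 3.36 at Smad7, Tnrc18 and Cdkn1b. In replicate 3 the lowest value, 2.38, was shared by 3 peaks, 1 of them in an intron of Sema3a (chr5:13402952-13403258) and 1 beside the Hoxc10 region (chr15:102952805-102953316). Apart from those at Eya4 and Smad7, the peaks named here lay inside or beside a region of 2000 bp or more.

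By position, 53 of the 300 narrow peaks held a TSS of the GENCODE M21 annotation, and 133 (44.3%) had one within 1 kb. In replicate 1 the share was 42.3% (95% exact binomial interval 34.6–50.3%), against 66.2% of its wider peaks. In replicate 3 it was 46.7% (38.1–55.4%), against 63.2%. The difference, −23.8 and −16.4 percentage points, had the same sign in both replicates (exact two-sided sign-flip test over 2 replicates, p = 0.5, the smallest it can give). With a limit of 5 kb the difference shrank to −7.00 and −3.77 percentage points in replicates 1 and 3, and with protein-coding transcripts only it was −24.4 and −7.80. These distances were taken from the peak edge, and a wide peak reaches further to each side. From the middle of the peak, the share was 41.0% and lay above that of wider peaks by 6.96 and 6.22 percentage points in replicates 1 and 3 (p = 0.5 in the same exact test). Of the 403 bp windows placed every 100 kb, 7.46% lay within 1 kb of a TSS. By annotation, 49 narrow peaks met coding sequence, 58 met other exons, 151 lay in introns and 42 lay between genes.

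The median GC content was 47.4% in replicate 1 and 47.4% in replicate 3, and 49.2% and 48.5% in the wider peaks, which leaves differences of −1.82 and −1.16 percentage points (exact two-sided sign-flip test over 2 replicates, p = 0.5, the smallest it can give). In the 200 bp around the middle of each peak the differences were −1 and 0.25 percentage points, of opposite sign in the 2 replicates (p = 1 in the same exact test). The windows had a median of 41.7%. The ratio of observed to expected CpG had a median of 0.375 and 0.405 in the narrow peaks of replicates 1 and 3, 0.486 and 0.455 in their wider peaks, and 0.153 in the windows. It was lower in narrow than in wider peaks in both replicates (p = 0.5 in the same exact test). A GC content of at least 50% together with a CpG ratio of at least 0.6, a usual rule for CpG islands, was met by 57 narrow peaks (19.0%), by 43 of 175 wider peaks (24.6%) and by 0.785% of the windows. Soft-masked repeats made up a median of 14.8% and 12.5% of the bases in the narrow peaks of replicates 1 and 3, and 23.3% in the windows. The narrow peaks differed from the wider ones by 0.763 and −0.222 percentage points (p = 1 in the same exact test).

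Short motifs were counted on both strands in the narrow peaks and in the windows of 403 bp, which is the median width of the narrow peaks. The E-box CANNTG, the core bound by MyoD and other basic helix-loop-helix factors, was in 78.7% of narrow peaks and 88.3% of windows, at 4.05 and 5.49 matches per kb, with 3.61 in the wider peaks. GAGAG was in 72.0% and 63.5%, at 6.88 and 4.14 matches per kb. Its density was 6.41 per kb in the wider peaks and 5.75 in the narrow peaks that did not stand alone. CATTCC, the core bound by TEAD factors, was in 25.0% and 20.7%. It overlaps the CCATT run, and without the peaks that hold one its density was 0.563 per kb, against 0.587 in the windows. The MEF2 motif was in 8.0% of narrow peaks and 9.05% of windows. A match says only that these letters occur, and these differences were not tested.

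Genes were taken from the study's supplementary assignment of merged regions. Of the 242 merged regions on these chromosomes, 215 held a narrow peak, and 38 of those have no gene. The others name 137 genes, of the 146 in the whole assignment, of which 92 are protein-coding. With regions in at least 2 lists only, 84 genes remained. For 71 genes every assigned region was under 1000 bp, for 17 the widest was 1000 bp or more and under 2000 bp, and 49 also had a region of 2000 bp or more. Both replicates had narrow peaks for 74 genes, replicate 1 alone for 35 and replicate 3 alone for 28. The gene with most such regions was 2010111I01Rik on chromosome 13, with 11 regions and 15 narrow peaks, 6 in replicate 1 and 9 in replicate 3. The next were 2700069I18Rik, with 6 regions and 10 narrow peaks, and Hoxc5, with 6 regions and 8 narrow peaks. Their highest narrow values were 16.0, 22.8 and 7.72 in replicate 1 and 6.90, 16.8 and 7.35 in replicate 3.

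Homeobox genes encode factors that bind DNA and set cell and segment identity. Of 90 in a list of homeobox families chosen with earlier results known, 21 had a region with a narrow peak, and 22 had a region of any width. For comparison, 92 of 21728 annotated protein-coding genes had one with a narrow peak. Other lists, chosen in the same way, are read against that share. A narrow peak was assigned to 2 of 3 runt genes, 2 of 5 Zic genes, 1 of 24 Smad, Tgfb, Bmp and Id genes, 2 of 5 receptor tyrosine kinase inhibitors (Spry genes, Dusp4 and Dusp6), 2 of 6 myogenic regulators, 1 of 4 Eya genes and 1 of 3 hedgehog co-receptors. It was assigned to 2 of 20 chromatin genes, the Kdm genes with Ezh2, Jarid2 and Bahcc1. For Jarid2 this rests on the lone peak above, whose origin was not tested. Some lists include genes known to hold a peak, so their counts say nothing about a group as a whole. In the Hoxa cluster, Hoxa10 had 3 such regions, with highest values of 8.72 and 27.4 in replicates 1 and 3, and Hoxa7 had 3, with 6.83 and 16.5. Hoxa3 had 1, found in replicate 3 with 6.05. In the Hoxc cluster, Hoxc6 had a lone region of 451 bp, shared with Hoxc5, in replicate 1 with 7.24. Pax7, which marks muscle stem cells, had 5 regions and 8 narrow peaks, 7 of them in replicate 1. Outside the clusters, some homeobox genes had narrow regions in replicate 3 alone. Among them were Meis2 (8.67) and Shox2 (12.4), with 2 regions each, and Zfhx3 (6.90) and Cux1 (5.22), with 1 each. En1 had its 2 narrow peaks, 7.76 at the highest, in replicate 1 alone. Both met a wider peak of replicate 3, and their merged region had 14.8 there. Zfhx4 (22.8 and 7.49) and Meis1 (12.7 and 8.67) had narrow peaks in both replicates.

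Runt factors act in blood and bone formation. Runx2 had 5 regions with narrow peaks, 4 of them under 1000 bp, with highest values of 10.7 and 4.75. Runx1 had 4 regions, none wider than 1079 bp, with 8.72 and 9.11. Runx3 had none. Zic1 and Zic4 shared 2 regions (9.70 and 7.78). Smad7, an inhibitor of TGF-beta and BMP signalling, had 5 regions with narrow peaks. They were all under 1000 bp and the widest was 522 bp, with 1 narrow peak in replicate 1 (3.36) and 5 in replicate 3 (11.5 at the highest). Among inhibitors of receptor tyrosine kinase signalling, Spry2 had 3 regions (5.84 and 5.22) and Dusp4 had 2, both in replicate 1 (7.42). Smad7 and Dusp4 had no region of 1000 bp or more.

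Of a list of 14 cell cycle genes, the Cdkn genes with Pcna, Rb1, Cdk8 and Dtl, 6 had a region that holds a narrow peak. Pcna, the sliding clamp of DNA replication, had a lone region of 383 bp with 6.83 and 6.05 in replicates 1 and 3. Cdkn2c, an inhibitor of cyclin-dependent kinases, had 5.92 and 6.90 in 1 region of 587 bp. Dtl (7.76) was in replicate 1 alone, and Rb1 (4.87) and Cdk8 (17.2) were in replicate 3 alone. Cdkn1b had its narrow peaks, 3.36 and 9.59, inside a region of 7030 bp. Myf6, a myogenic regulator, had 1 region of 258 bp in replicate 1 alone (6.64). At Bahcc1 the narrow peaks (5.77 and 7.37) flanked a wide region.

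Cdon, a co-receptor of hedgehog ligands on the myoblast surface, had a narrow region that stood alone, in 2 lists, with 5.04 and 3.64 in replicates 1 and 3. Socs2, a suppressor of cytokine signalling, also stood alone, with 1 peak of 330 bp in replicate 1 (5.92). Eya4, Vgll3 and Tcf7l2 had several regions each. Eya4 had 4 narrow peaks in replicate 1 and 1 in replicate 3, over regions of 335, 491 and 1900 bp. Vgll3, a partner of TEAD factors, had 4 narrow peaks over regions of 258, 1223 and 1267 bp. Tcf7l2, a nuclear effector of Wnt signalling, had a region of 248 bp in replicate 1 (8.72) and one of 559 bp in replicate 3 (4.46), which did not overlap. None of these 5 genes had a region of 2000 bp or more.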

How the data were processed

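The lists of 3 Ash1L ChIP-seq replicates were analysed, and per the labels each is 1 library of group Ash1L. The authors trimmed and aligned reads to mm10 (GRCm38), dropped duplicates, multiply mapped reads and blacklisted regions, and took peaks from MACS2 with input as control, replicate by replicate. The deposited column 5 was read as −log10 q, the unit of the authors' peak caller. The deposited merged list equals the union of the 3 lists for all 259 regions. Where summits share a peak, the highest value was kept. The lists give a name and no position to a summit.

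Overlap meant at least 1 bp. A peak flanked a region of 2000 bp or more within 10 kb, or stood alone with no merged region other than its own within 10 kb. TSSs came from GENCODE M21, sequences from GRCm38.p6 of RefSeq. Members and gene lists were chosen with earlier results of these data known. Named genes followed a rule: the strongest narrow regions in 2 lists, the highest and lowest peaks of each replicate, lone regions in 2 lists, the wide regions with most neighbours, the genes with most regions, the peaks next to the width limit, Cdon, Eya4, Vgll3, Socs2 and Tcf7l2, and the listed gene families. Other regions that were named were chosen after their values were seen. Some genes, regions and sequences that meet it are not reported. The sign-flip test had been planned over 3 replicates, but replicate 2 has 0 narrow peaks, so 2 entered. Alternatives were other widths, distances, overlaps, a −log10 q of at least 5, and each replicate left out. Peaks with a column value from 5 to 20 and peaks without the CCATT run were added after seeing the data. Classes, overlap and runs were tested on simulated data. Tools were samtools 1.23.1, pysam 0.24.0, pandas 2.3.3, numba 0.67.0, scipy 1.17.1, numpy 2.4.6 and Python 3.11.15.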

Additional observations from a re-analysis of the deposited data

Results flagged for a closer look

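Peaks of fewer than 1000 bp also stood on unplaced sequences of the assembly, which the comparisons above leave out. There were 27, 12 in replicate 1 and 15 in replicate 3, on 5 such sequences, and they were singled out as signal in data the comparisons do not use. Their −log10 q had a median of 12.1 in replicate 1 and 10.2 in replicate 3, with a highest value of 46.2, and 18 of them (66.7%) overlapped a peak of the other lists. What sets them apart from the peaks on chromosomes was not tested.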

How the results depend on the processing

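Of 7 results, 6 were recomputed in 36 comparisons, 33 of them planned and 3 added after seeing the data. The widths and −log10 q values had no alternative. In 33 the mean direction was kept or the value stayed close, by 1.5 times for a count and by 1 SD of the replicates for the flanking share. With distances from the middle of the peak, the share of narrow peaks within 1 kb of a TSS was 41.0% and the difference from wider peaks changed sign. That measure gives wide peaks no credit for their edges, and what turned the sign was not tested. Of the genes, 84 in place of 137 remained with regions in at least 2 lists only, as the filter removes regions. The flanking share moved from 32.3% to 40.1% without replicate 1. With a replicate left out, the overlap share ran from 8.03% to 57.7%, the flanking share from 35.0% to 40.1%, the TSS share from 42.3% to 46.7%, the median GC content from 47.4% to 47.4% and the number of genes from 102 to 137. Leaving out replicate 1 or replicate 3 leaves replicate 2, a short list, as the other one. When the shared stretch had to be 50% or more of each peak, the overlap share was 29.3%, and narrow and wider peaks with a column value from 5 to 20 still differed in overlap, by −29.8 and −46.9 percentage points in replicates 1 and 3. With 2 replicates no sign-flip test here can pass its threshold, so p-values say nothing about stability. For GC content around the middle of the peak, the replicates differed in sign. No paired analysis was possible between sample groups, because files of the Ash1L group alone were analysed. The sign-flip tests pair narrow and wider peaks within each replicate.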

Other observations

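On chromosome 17, 3 narrow peaks of replicate 1 lay in Gm26917, at chr17:39843089-39843811, chr17:39844680-39844927 and chr17:39845140-39845514, with values of 12.3, 5.69 and 7.16. This gene is labelled lincRNA and lies in the locus whose sequence was taken as ribosomal RNA above. The 3 peaks flanked a wide region. A lone narrow peak of replicate 3, chr6:3201256-3201535 (9.58), shared 46.4% of its 31-base words with the sequence taken as ribosomal RNA, though it lies between genes.

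Some other lone peaks held repeated sequence. The peak at 2410141K09Rik (chr13:66431624-66432091) had 7.14 and 5.22 in replicates 1 and 3, with 61.0% and 53.0% of its 50-base words repeated. In replicate 1, a peak over Zfp534 (5.06) had 62.2% and one at Gm26870 (9.39) had 100% repeated.

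Genes labelled miRNA or misc_RNA lay under a few narrow peaks. In replicate 1, a lone peak at Gm24105 (chr5:149247965-149248277) had 10.7, and the peaks at Hoxa11os over Gm27543 had 6.83 in replicate 1 and 9.96 in replicate 3.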
